A study of Mus musculus with 8 samples.

Results

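The mouse genome carries many genes for zinc finger proteins under symbols made of Zfp and a number, and the 98 genes described here are those whose symbol is Zfp followed by a 3-digit number that starts with 7, 8 or 9 and by no further letter, among the 46078 genes of the deposited count table. The rule uses the symbol and no measured value, although it was proposed with earlier results of these data known. Total RNA was sequenced from fully grown germinal vesicle (GV) oocytes, the immature oocytes arrested in meiotic prophase, in 4 Zp3-Cre control libraries and 4 CNOT7&8 KO libraries of 100 oocytes each. CNOT7 and CNOT8 are paralogous deadenylases, alternative catalytic subunits of the CCR4-NOT complex, which shortens poly(A) tails and starts mRNA decay. CNOT7&8 KO oocytes came from Cnot7 fl/fl; Cnot8 fl/fl; Zp3-Cre females, in which the Zp3 promoter drives Cre recombinase in growing oocytes, and control oocytes carried Zp3-Cre with no floxed allele named in the labels. The females were 4 weeks old with a C57BL/6J background, and oocytes were collected 48 h after PMSG, the hormone that stimulates follicle growth, and freed of cumulus cells. The comparison asks how the RNA of these genes differs in oocytes that lack both paralogs.

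Most proteins of this kind hold rows of C2H2 zinc fingers, small folds held by a zinc ion that each read a few bases of DNA. Many also hold a KRAB domain, which recruits the co-repressor TRIM28 and through it SETDB1, HP1 proteins and the NuRD complex, so that the bound locus gains H3K9 trimethylation and is silenced. KRAB zinc finger proteins are known for repressing retrotransposons and for protecting imprinted marks in germ cells and early embryos, and their genes lie in clusters that arose by tandem duplication. Translation of the longest open reading frames of GENCODE vM21 (GRCm38) gave a protein for 96 of the 98 genes, and Zfp783 and Zfp939 are annotated as pseudogenes. A KRAB pattern was found in 72 of the 96 proteins and 3 or more C2H2 fingers in 85, so that the label of C2H2 and KRAB genes held for most and not for all.

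The short linker between neighbouring fingers is shown for the 8 genes with the largest increases as a stretch that many members hold in a similar form. A linker of the Krüppel type was found within an exon in 75 of the 98 genes, with 1 to 18 copies and a median of 6 copies per gene, and in 7 of the 8. The search used a fixed pattern of 7 amino acids with a choice at the last only, so that linkers of other forms were missed. Each line gives 30 bases of coding sequence, 5′ to 3′ on the gene's strand, with the 21 bases of the first linker in capitals.
Zfp871 (GRCm38 chr17:32775447-32775476, minus strand): attCACACGGGGGAGAAACCGTACgtgtgc
Zfp954 (chr7:7115860-7115889, minus strand): ataCACACTGGGGAAAAGCCTTTTcagtgc
Zfp772 (chr7:7204022-7204051, minus strand): ataCACACTGGAGAAAAGCCTTTTcagtgc
Zfp711 (chrX:112632846-112632875, plus strand): accCATACTGGTGAGAAGCCATATcagtgt
Zfp707 (chr15:75975000-75975029, plus strand): gtgCACACCGGGGAGAAGCCCTTCtactgc
Zfp948 (chr17:21587250-21587279, plus strand): attCATACTGGTGAGAAACCCTACaagtgc
Zfp786 (chr6:47819984-47820013, minus strand): acaCATACAGGAGAGAAGCCTTTTcagtgt
Among the 21 pairs of these 7 sequences, 14 to 20 of the 21 linker bases were the same, with the most between Zfp772 and Zfp954 and the fewest in 4 pairs, Zfp772 with Zfp871 or Zfp948, Zfp948 with Zfp954, and Zfp786 with Zfp871. Part of this likeness is set by the search pattern. Over the 75 genes, the first linker took 57 different forms, and 8 genes shared the most frequent one base for base.

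Total counts ranged from 14943671 to 44092144 in the control and from 8639444 to 26784110 in the KO libraries, so that 3 counts stood for 0.0802 to 0.326 CPM (counts relative to library size, scaled by TMM, which corrects for library composition). Cnot8 fell from 168 ± 20.01 to 35.2 ± 1.40 CPM (SD, n = 4 in each group), with a log2 fold change of -2.25 ± 0.12 (SE) and an adjusted p of 8.2e-08, and Cnot7 was at 933 ± 77.3 and 719 ± 70.8 CPM, lower in all 4 KO libraries with an adjusted p of 0.0105 and under 2-fold, in counts per gene that do not resolve the deleted exons. All 13 oocyte markers were tested and none passed both thresholds, 8 were lower and 1, Nobox, higher with the adjusted p alone, with summed levels of 23350 to 27310 CPM in control and 19160 to 22170 CPM in KO libraries. Of 12 granulosa and cumulus markers, 11 were tested and 5 were upregulated, Inha, Nr5a2, Gja1, Inhba and Fshr, with summed levels of 121 to 166 CPM in control and 189 to 263 CPM in KO libraries, and Cyp19a1, among the most abundant of the list, was lower, at 50.4 to 67.7 CPM in control and 23.5 to 38.1 CPM in KO libraries. On the same list, Foxl2 was at 0 in 5 of the 8 libraries and Amh at 0.0728 to 1.70 CPM. Fshr was at 0.953 to 1.58 CPM in control and 2.90 to 5.77 CPM in KO libraries, and Inha at 4.44 to 10 and 4.77 to 38.4 CPM. The part of such cells in the results below was not tested. Zp3-Cre replicate 1 stood apart among the controls, and CNOT7&8 KO replicate 4 deviated in the same direction, with a correlation of 0.372 between their deviations from their group means over all genes tested.

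Of the 98 genes, 93 had at least 0.2 CPM in 2 or more libraries and were tested. Upregulated genes were those with an adjusted p of at most 0.05 and at least 2-fold more RNA in CNOT7&8 KO oocytes, and 31 of the 93 (33.3%) were upregulated, beside 23.8% of all 19241 genes tested. None was downregulated by the same thresholds, beside 6.56% of all genes, and edgeR's exact test and DESeq2 also gave 0. At an unadjusted p under 0.05, 0 of the 93 genes were at least 2-fold lower and 14 were lower by any amount. The matching counts over all 19241 genes were 1336 and 5133. With the adjusted p alone, 40 genes (43.0%) were higher and 13 (14.0%) lower, beside 31.2% and 24.1% of all genes. Every KO library lay above every control library for 34 genes, 36.6% against 27.0% of all genes, and below for 13 genes, 14.0% against 21.4%, while the groups overlapped for 46. The median log2 fold change was 0.32 over the 93 genes and 0.12 over all genes tested, and single genes ran from -0.92 for Zfp775 to 4.92 for Zfp871. In RNA of whole oocytes, more RNA per cell cannot be told apart from more cells of another type in the sample.

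**Figure D1:**
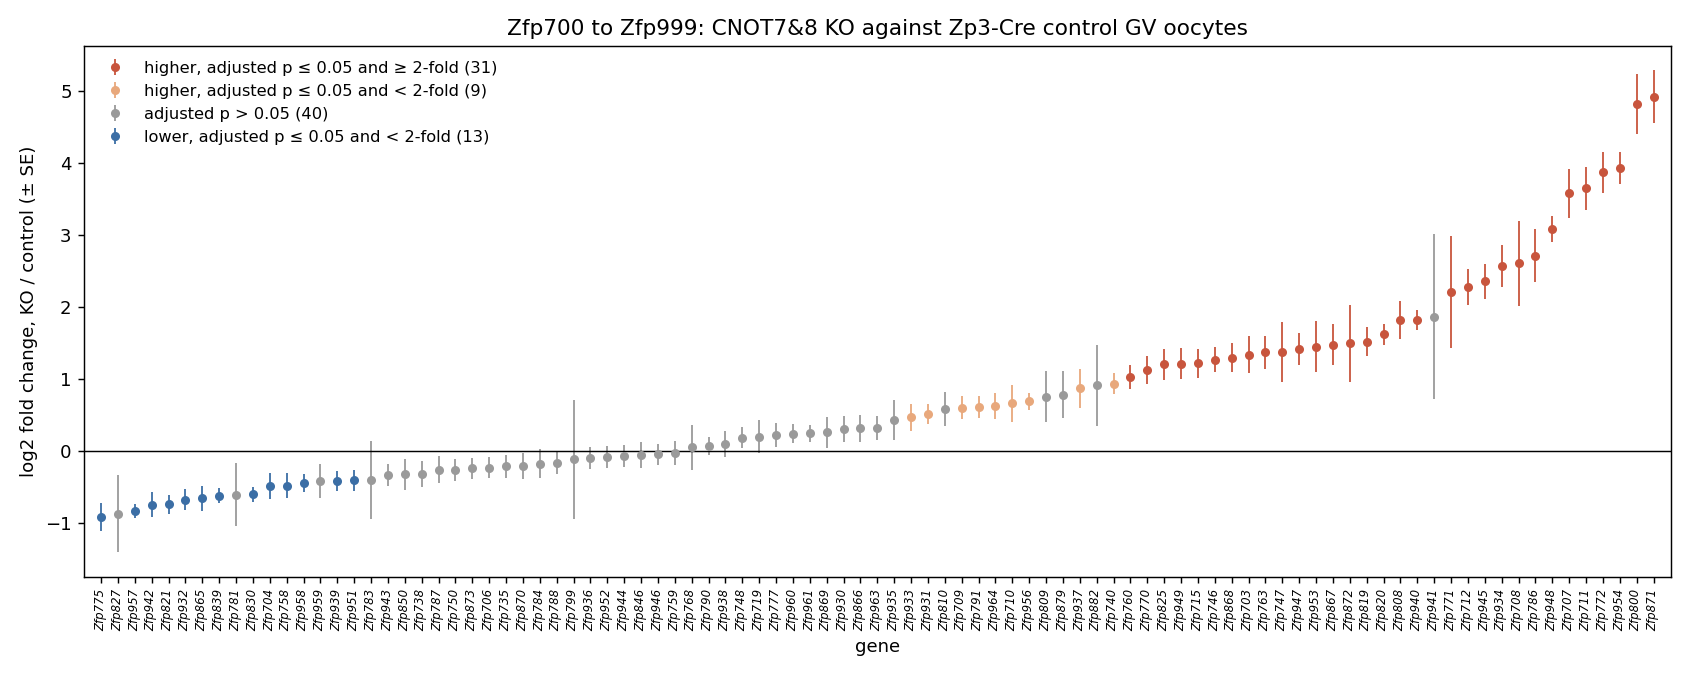
Log2 fold change (y axis) of each of the 93 genes tested (x axis, in rising order), CNOT7&8 KO against Zp3-Cre control, with its standard error. The 31 genes in red reach up to 4.92, while the 13 genes in blue all lie between -0.92 and -0.41.

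The 8 largest increases without overlap between the groups, among members with 1 CPM or more on average, were those of Zfp871, Zfp800, Zfp954, Zfp772, Zfp711, Zfp707, Zfp948 and Zfp786. Zfp871, a KRAB gene on chromosome 17, had 0.989, 0.494, 0.136 and 0.728 CPM in control replicates 1 to 4 and 19.0, 20.1, 13.3 and 25.8 CPM in KO replicates 1 to 4. It rose by a log2 fold change of 4.92 ± 0.37 (SE) with an adjusted p of 8.5e-07, from control counts of 2 to 37 to KO counts of 175 to 756. Zfp800, on chromosome 6 and without a KRAB pattern, had 1.79, 0.346, 0.953 and 0.291 CPM in control and 23.8, 21.3, 26.5 and 35.7 CPM in KO oocytes. Its log2 fold change was 4.82 ± 0.42 with an adjusted p of 2.4e-06. For both genes the lowest KO library was more than 10 times the highest control library, and the controls differed more among themselves, on a log scale, than the KO libraries did.

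Zfp954 and Zfp772 are KRAB genes that lie close together on chromosome 7 and share 68.3% of their protein sequence. Zfp954 had 2.06, 1.09, 1.57 and 1.17 CPM in control and 24.3, 19.4, 24.98 and 23.7 CPM in KO oocytes, a log2 fold change of 3.93 ± 0.22 with an adjusted p of 1.2e-07. Zfp772 had 2.91, 1.48, 1.84 and 0.947 CPM in control and 29.7, 25.7, 21.7 and 33.6 CPM in KO oocytes, a log2 fold change of 3.87 ± 0.29 with an adjusted p of 7.8e-07. The pair thus reached similar levels, with every KO library above every control library. Of their windows of 50 bases, 1.96% for Zfp954 and 6.89% for Zfp772 also occur in transcripts of another gene.

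Zfp711, an X-linked gene whose protein works with the histone demethylase PHF8, had 0.294, 0.395, 0.612 and 0.291 CPM in control and 4.67, 5.16, 4.01 and 5.62 CPM in KO oocytes. Its log2 fold change of 3.65 ± 0.29 with an adjusted p of 1.4e-06 rested on 4 to 11 counts per control library and 43 to 165 per KO library. Zfp707, a KRAB gene on chromosome 15, had 4.89, 6.02, 9.73 and 3.50 CPM in control and 70.8, 55.5, 114 and 46.6 CPM in KO oocytes. It reached the highest KO level of the 8 and also had the widest spread between KO libraries, 71.8 ± 30.1 CPM (SD, n = 4), with a log2 fold change of 3.58 ± 0.34 and an adjusted p of 4.6e-06. Zfp948, a KRAB gene at one end of a cluster on chromosome 17, had 2.83, 2.22, 2.65 and 3.64 CPM in control and 24.5, 24.1, 20.5 and 26.7 CPM in KO oocytes. Its replicates were the tightest of the 8 by standard error, with a log2 fold change of 3.09 ± 0.18 and an adjusted p of 1.8e-07. Zfp786, a KRAB gene on chromosome 6, had 0.989, 0.296, 1.16 and 0.364 CPM in control and 5.65, 5.11, 4.63 and 3.78 CPM in KO oocytes, a log2 fold change of 2.71 ± 0.37 with an adjusted p of 7.5e-05. The rule that chose these 8 genes required no overlap between the groups. That alone fixes their exact two-sided permutation p at 0.0286, the smallest that 8 libraries allow, so that it adds no support.

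**Figure D2:**
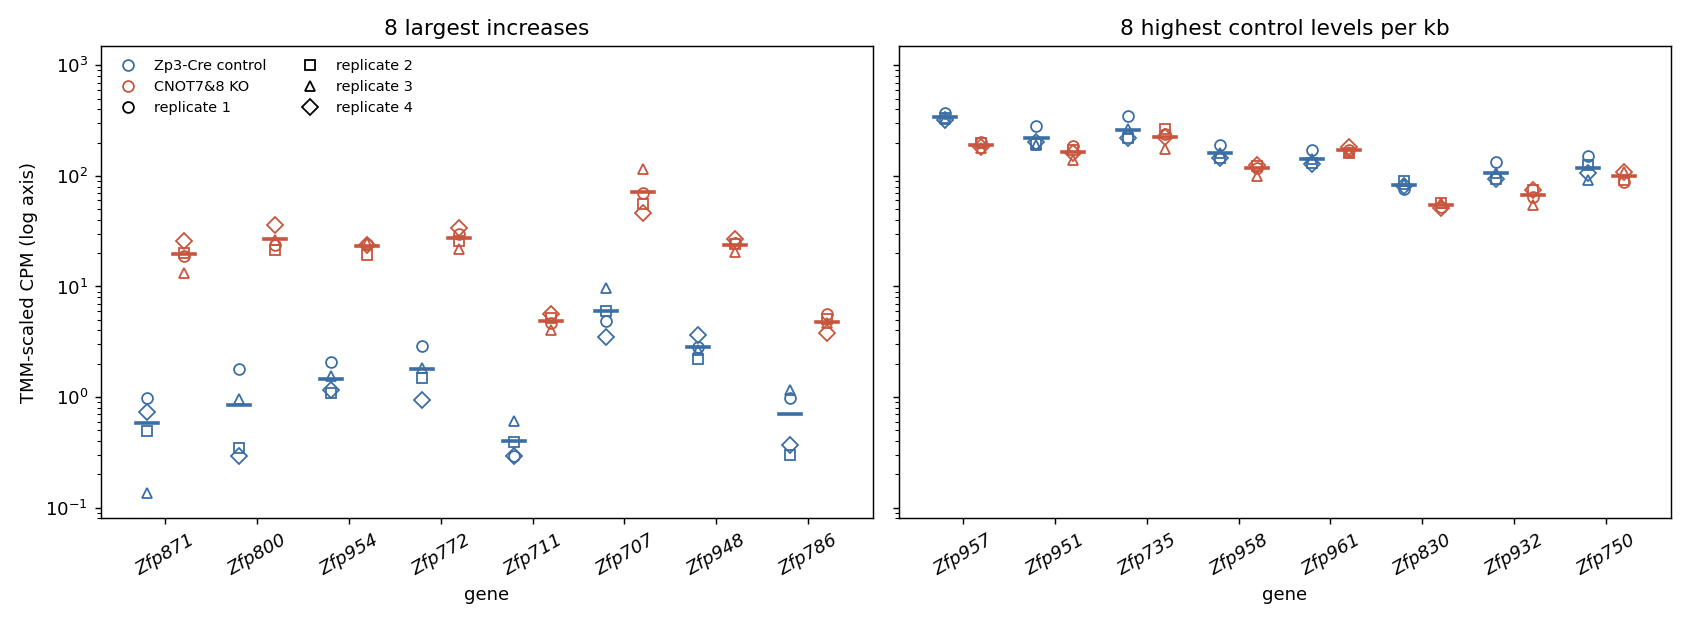
TMM-scaled CPM (log axis) in each library for the 8 genes with the largest increases and the 8 with the highest control levels per kb, with 1 symbol per replicate and a bar at each group mean. On the left every KO library lies above every control library, as the rule that chose these genes requires. On the right Zfp957 is the farthest apart, with all KO libraries below the controls.

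The other 23 upregulated genes had log2 fold changes from 1.03 to 2.604 and mean KO levels of 0.635 to 109 CPM. Zfp940, a KRAB gene, was the most abundant of them in KO oocytes, with 39.1, 26.5, 30.01 and 27.2 CPM in control and 114, 111, 99.0 and 110 CPM in KO oocytes, a log2 fold change of 1.82 ± 0.14. Zfp820, also a KRAB gene, had 23.9, 18.5, 19.9 and 18.9 CPM in control and 66.9, 63.7, 49.9 and 69.96 CPM in KO oocytes, a log2 fold change of 1.62 ± 0.14. Both were named after their values were seen, as the most abundant of the 23 and as a member of the chromosome 17 cluster. Groups did not overlap for 30 of the 31 upregulated genes, which a call made from the same libraries favours. The exception was Zfp771, which had 0.0267, 0.0987, 0.476 and 0 CPM in control and 0.869, 0.659, 0.432 and 0.579 CPM in KO oocytes. It rests on few reads, with an adjusted p of 0.0291, and lost its call without Zp3-Cre replicate 1, 2 or 4 or CNOT7&8 KO replicate 1 or 2 (adjusted p of 0.058 to 0.0715).

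Members with a known role in silencing repeats did not move together. Zfp819, a KRAB gene linked to the repression of endogenous retroviruses in pluripotent cells, had 8.23, 4.84, 4.76 and 5.83 CPM in control and 18.7, 14.6, 15.97 and 19.1 CPM in KO oocytes. It rose by a log2 fold change of 1.51 ± 0.20 with an adjusted p of 6.2e-05. Zfp708, which takes part in keeping methylation at a class of repeats, had 0.187, 0.247, 0.0680 and 0 CPM in control and 0.543, 0.659, 1.42 and 0.920 CPM in KO oocytes. Its log2 fold change was 2.604 ± 0.597 with an adjusted p of 0.00289, but all of its windows of 50 bases occur in transcripts of another gene and 96.4% of its exonic bases lie in exons of Gm28557 or Rslcan18 on the same strand, so that its reads are uncertain. Zfp809, which silences murine leukemia proviruses through their primer binding site, had 4.49, 3.95, 3.95 and 3.86 CPM in control and 3.37, 3.52, 8.14 and 11.9 CPM in KO oocytes. Its KO libraries were split, 2 below and 2 above all controls, and its log2 fold change of 0.75 ± 0.35 had an adjusted p of 0.0875. Zfp932, which binds and represses retroviral elements in embryonic stem cells, had 133, 94.8, 106 and 94.3 CPM in control and 64.0, 74.9, 54.3 and 74.7 CPM in KO oocytes. It was lower in all 4 KO libraries, with a log2 fold change of -0.68 ± 0.15 and an adjusted p of 0.00199, under 2-fold, and 45.2% of its windows also occur elsewhere.

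Members known for other roles were also divided. Zfp746, encoding PARIS, a repressor of the PGC-1α gene and a substrate of the ubiquitin ligase parkin, had 6.76, 7.75, 7.01 and 5.32 CPM in control and 19.4, 13.2, 16.2 and 16.1 CPM in KO oocytes, and it rose by a log2 fold change of 1.27 ± 0.18 with an adjusted p of 8.3e-05. Zfp703, a transcriptional regulator of the NET family, had 0.8287, 1.04, 1.16 and 0.947 CPM in control and 3.04, 2.20, 2.47 and 2.35 CPM in KO oocytes, and it rose by 1.34 ± 0.26 with an adjusted p of 8.7e-04. Its relative Zfp704 averaged 10.3 ± 2.13 CPM over the controls and 7.36 ± 0.605 CPM over the KO libraries (SD, n = 4), a log2 fold change of -0.48 ± 0.18 and an adjusted p of 0.0364, a value over 0.05 in 12 of 18 alternatives, with the replicate block (0.0822) and without Zp3-Cre replicate 1 (0.11) among them. Zfp830, needed for the survival of early embryos, had 76.9, 89.6, 84.0 and 81.2 CPM in control and 52.9, 57.3, 56.9 and 51.6 CPM in KO oocytes. Those groups did not overlap, and the log2 fold change was -0.60 ± 0.10 with an adjusted p of 4.5e-04. Zfp706, a small protein with 1 detected finger, had a log2 fold change of -0.23 ± 0.14, and Zfp750, a regulator of epidermal differentiation, of -0.26 ± 0.15, both with adjusted p over 0.05 and both above 0 when only library size was used for scaling. Zfp768, at -0.02 without Zp3-Cre replicate 1 and 0.05 ± 0.31 with all libraries, and Zfp827, which recruits NuRD to telomeres, at -0.87 ± 0.54 with 1 to 20 counts per library, had adjusted p of 0.906 and 0.184.

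Per kb of the longest transcript, the 8 tested genes with the highest control levels were, in falling order, Zfp957, Zfp951, Zfp735, Zfp958, Zfp961, Zfp830, Zfp932 and Zfp750. Zfp957 stood above the others at 124 ± 8.41 CPM per kb (SD, n = 4), with its lowest control library, 117, above the highest of the next gene, 97.7. Zfp951 at 75.2 ± 15.2, Zfp735 at 70.2 ± 15.7 and Zfp958 at 67.7 ± 8.86 CPM per kb overlapped one another. Zfp961 at 52.9 ± 7.29 and Zfp830 at 52.1 ± 3.34 CPM per kb also differed by less than their spread. Zfp932 and Zfp750 followed, at 42.7 ± 7.21 and 36.8 ± 8.02 CPM per kb, and overlapped as well, and the ninth, Zfp873 at 36.6 ± 7.47 CPM per kb, did not differ from Zfp750 beyond the spread. Of the first 8 genes none was upregulated, beside 23.8% of all genes and 0.346% of genes with a control mean of 100 CPM or more. Only Zfp830 was below that level, at 82.9 CPM. With the adjusted p alone, 5 of the 8 were lower, beside 24.1% of all genes at any level. The control libraries of this contrast also chose the 8 genes, which favours lower values in KO oocytes. Of the 5, Zfp951 and Zfp958 were no longer lower by that measure with library size alone (adjusted p of 0.406 and 0.202), nor was Zfp951 without Zp3-Cre replicate 1 (0.0517).

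Zfp957 had the smallest adjusted p among the genes that were lower. It had 374, 336, 327 and 323 CPM in control and 202, 199, 178 and 184 CPM in KO oocytes, a log2 fold change of -0.83 ± 0.10 with an adjusted p of 2.5e-05. All KO libraries lay below all controls, and no C2H2 finger or KRAB domain was found in its annotated protein by the patterns used. Among the genes next in control level per kb, Zfp951 had a log2 fold change of -0.41 ± 0.14 with an adjusted p of 0.0295. Zfp958 had -0.45 ± 0.12 with an adjusted p of 0.00799, and Zfp961 had 0.24 ± 0.11 with an adjusted p of 0.0882. Zfp735 had -0.22 ± 0.17, a sign that turned to 0.07 when only library size was used. The 13 genes lower with the adjusted p alone had log2 fold changes of -0.92 to -0.41. For all 13 every KO library was below every control library, which a call made from the same libraries favours. The lowest was Zfp775, a gene without a KRAB pattern, at 6.66, 9.28, 8.64 and 7.72 CPM in control and 4.34, 3.57, 5.12 and 4.05 CPM in KO oocytes, which was more than 2-fold lower without Zp3-Cre replicate 1.

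Genes with and without a KRAB pattern were also set beside all genes. Over all genes tested, 23.8% were upregulated and 6.56% downregulated, with a median log2 fold change of 0.12. Of 69 tested genes with the pattern, 25 (36.2%) were upregulated, with a median of 0.51. Of 22 with an open reading frame and without the pattern, 6 (27.3%) were upregulated, with a median of -0.20. With the adjusted p alone, 5 of the 69 (7.25%) and 7 of the 22 (31.8%) were lower, beside 24.1% of all genes. The 5 were Zfp932, Zfp942, Zfp758, Zfp951 and Zfp958, the 7 were Zfp704, Zfp775, Zfp821, Zfp830, Zfp839, Zfp865 and Zfp957, and the pseudogene Zfp939 made up the 13. Among the 225 other genes of the table with a KRAB pattern, 200 were tested, of which 67 (33.5%) were upregulated and 6 (3%) downregulated, with a median of 0.53. The 256 tested of 266 other genes with a Zfp symbol had 66 (25.8%) upregulated and 15 (5.86%) downregulated. Their median was 0.37, and both shares were near those of all genes. These shares stand side by side as descriptions, and their differences were not tested.

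**Figure D3:**
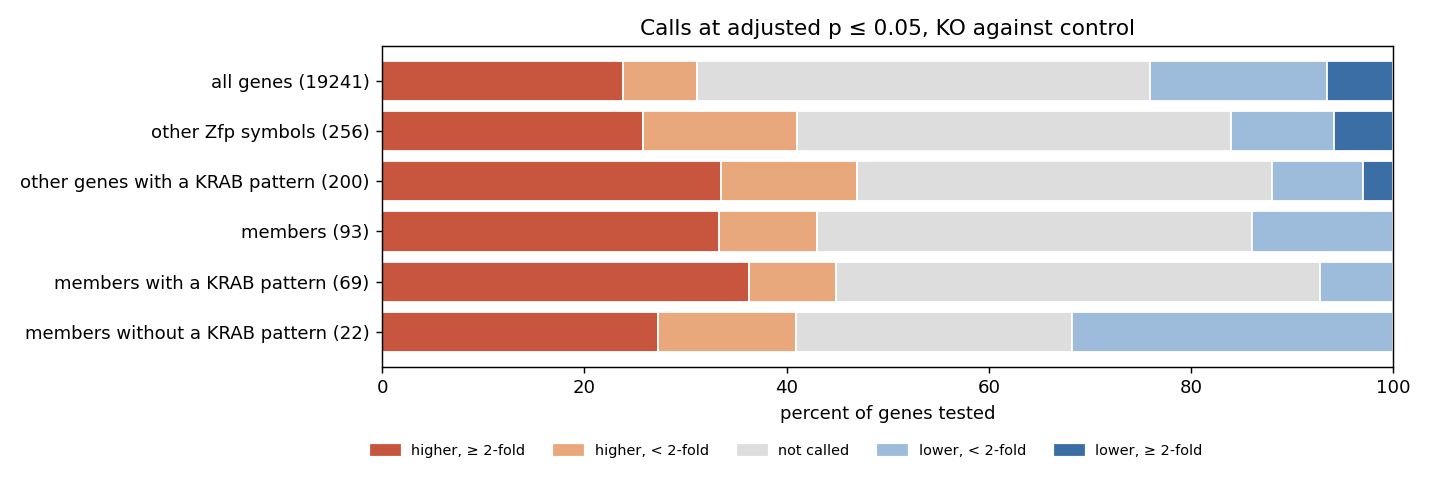
Percent of genes tested (x axis) that were higher or lower in CNOT7&8 KO oocytes at an adjusted p of at most 0.05, split at 2-fold, with the number of genes tested in brackets. Members with a KRAB pattern had 7.25% lower and members without it 31.8%, beside 24.1% of all genes.

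By number of C2H2 fingers, 2 of 12 tested genes with under 5 fingers, 14 of 32 with 5 to 10 and 15 of 47 with over 10 were upregulated, with median log2 fold changes of -0.37, 0.72 and 0.30, beside 23.8% of all genes upregulated. With the adjusted p alone, 5 of the 12 genes with the fewest fingers were lower, as were 1 of 32 and 6 of 47 in the other classes, beside 24.1% of all genes. The genes with the fewest fingers also had higher control levels, with a median of 53.3 CPM against 5.98 and 20.4 CPM.

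Most upregulated genes were among those with little RNA in control oocytes. With a control mean under 1 CPM, 9 of 15 tested members were upregulated (60.0%, beside 45.3% of all genes at that level), and with 1 to under 10 CPM 17 of 27 were (63.0%, beside 28.3%). With 10 to under 100 CPM, 5 of 41 were (12.2%, beside 6.96%), and with 100 CPM or more 0 of 10 were (beside 0.346%). Median log2 fold changes over these classes were 1.49, 1.29, 0.07 and -0.25. Across the 93 genes, Spearman's rho between control mean and log2 fold change was -0.54, and across all genes tested it was -0.57. Control libraries enter both axes, so that error in them alone gives a negative rho, and genes are not independent replicates.

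**Figure D4:**
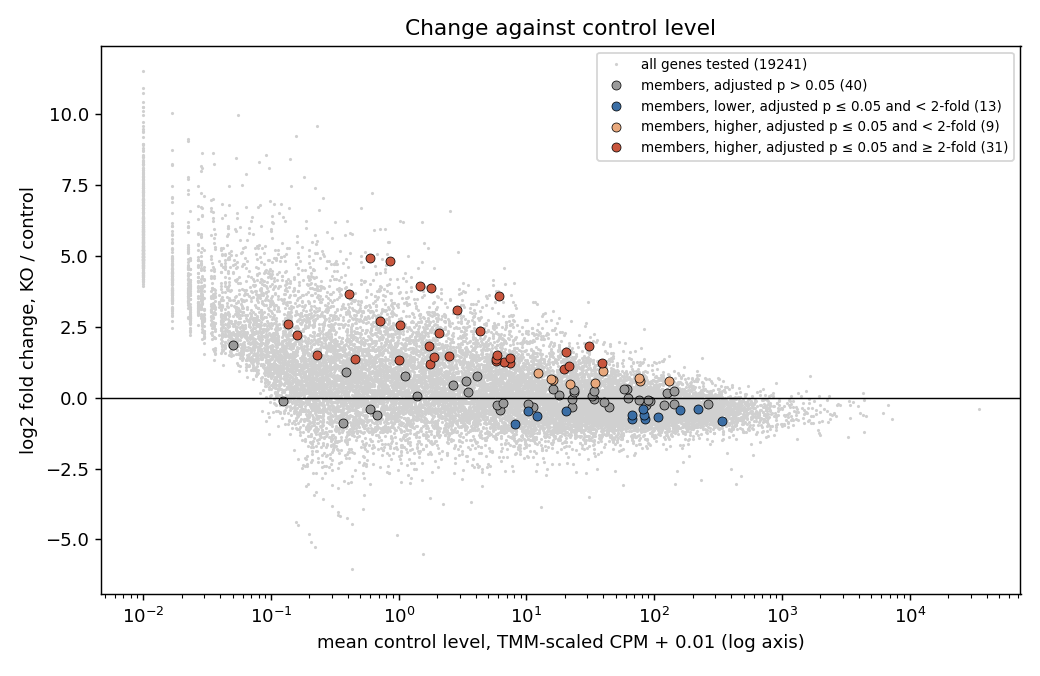
Log2 fold change (y axis) against mean control level (x axis, log scale, 0.01 CPM added) for all 19241 genes tested in grey and the 93 members in colour. Upregulated members lie mainly under 10 CPM, and no member of 100 CPM or more was upregulated.

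No cluster of members was upregulated throughout. With at most 500 kb between neighbours, 5 groups of 5 or more members were found, holding 33 genes, of which 32 were tested and 13 upregulated (40.6%), while 18 of the 61 tested elsewhere were (29.5%), beside 23.8% of all genes, and the difference was not tested. The largest lay on chromosome 17 (GRCm38 chr17:21567008-22867134) and held 10 genes, all with a KRAB pattern, of which 5 were upregulated: Zfp948, Zfp760, Zfp820, Zfp947 and Zfp945. Zfp760 was under 2-fold without Zp3-Cre replicate 4 (0.93) or CNOT7&8 KO replicate 4 (0.96). Of the 10, Zfp942 and Zfp758 were lower with the adjusted p alone, beside 24.1% of all genes. Zfp758 lost this call in 8 of 18 alternatives, with adjusted p up to 0.293, and Zfp942 in none. Zfp942 had 112, 73.4, 76.2 and 79.1 CPM in control and 53.0, 59.4, 36.7 and 53.7 CPM in KO oocytes, a log2 fold change of -0.75 ± 0.17 with an adjusted p of 0.00313. Zfp944, the member most like it in protein sequence (78.9% identical, the highest value between any 2 members), had 75.7 ± 15.2 and 72.2 ± 8.08 CPM (SD, n = 4), a log2 fold change of -0.07 ± 0.15. Zfp945, at the far end, had 5.37, 2.71, 4.56 and 4.52 CPM in control and 24.4, 26.4, 15.1 and 22.4 CPM in KO oocytes, a log2 fold change of 2.35 ± 0.24. Log2 fold changes within this stretch of 1.30 Mb thus ran from -0.75 to 3.09. The other clusters, on chromosomes 13, 17, 6 and 8, had 3 of 6, 2 of 5, 2 of 5 and 1 of 6 tested genes upregulated, and the second on chromosome 17 held Zfp871 together with genes as low as -0.21. None of these clusters held a gene that was lower with the adjusted p alone. On chromosome 8 all 6 log2 fold changes were above 0, from 0.256 to 1.292.

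The transcripts of these genes were AT-rich, with close medians in upregulated and other members. The GC content at codon position 3 had a median of 41.2% over the 91 tested members with an open reading frame, against 59.9% over all genes tested with one, and was 38.2% in upregulated and 41.4% in other members. The median 3′UTR length was 1402 bases in members and 1246 bases in all genes, and 1437 bases in upregulated against 1362 bases in other members. Spearman's rho with log2 fold change over the members was 0.01 for GC at codon position 3, -0.05 for 3′UTR length and 0.08 for the number of fingers. Motifs were searched on the sense strand of the longest 3′UTR, and overlaps between motifs were not removed. The cytoplasmic polyadenylation element TTTTAT was found in 61.3% of upregulated and 59.3% of other members, beside 56.3% of all genes tested with a 3′UTR. The Pumilio element TGTAAATA was found in 12.9% and 8.47%, beside 11.8%, and the AU-rich pentamer ATTTA in 77.4% and 83.1%, beside 70.2%.

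Summed over the 31 upregulated genes, which this contrast chose, the level was 256, 172, 213 and 166 CPM in control replicates 1 to 4 and 747, 687, 676 and 762 CPM in KO replicates 1 to 4. Over the 62 genes that were tested and not called, the sums were 4122, 3061, 3227 and 3076 CPM in control and 3178, 3249, 2820 and 3330 CPM in KO oocytes, so that the groups overlapped. All 98 genes together took 0.297% to 0.371% of the raw counts in control and 0.399% to 0.449% in KO libraries, without TMM scaling. With TMM scaling the groups overlapped. The sums over the 98 genes were then 4379, 3234, 3440 and 3242 CPM in control and 3925, 3936, 3496 and 4093 CPM in KO libraries. Zp3-Cre replicate 1 had the highest control level for 67 of the 93 genes, with a median log2 deviation of 0.36 from the group mean. CNOT7&8 KO replicate 4 had the highest KO level for 40 of the 93, with a median deviation of 0.12. Without both libraries, 34 of 92 tested genes were upregulated (37%), 30 of them among the 31, and 0 downregulated. Over all genes, 23% were then upregulated and 6.35% downregulated. Granulosa and cumulus markers summed to 263, 255, 215 and 189 CPM in KO replicates 1 to 4, and their part in these sums was not tested.

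**Figure D5:**
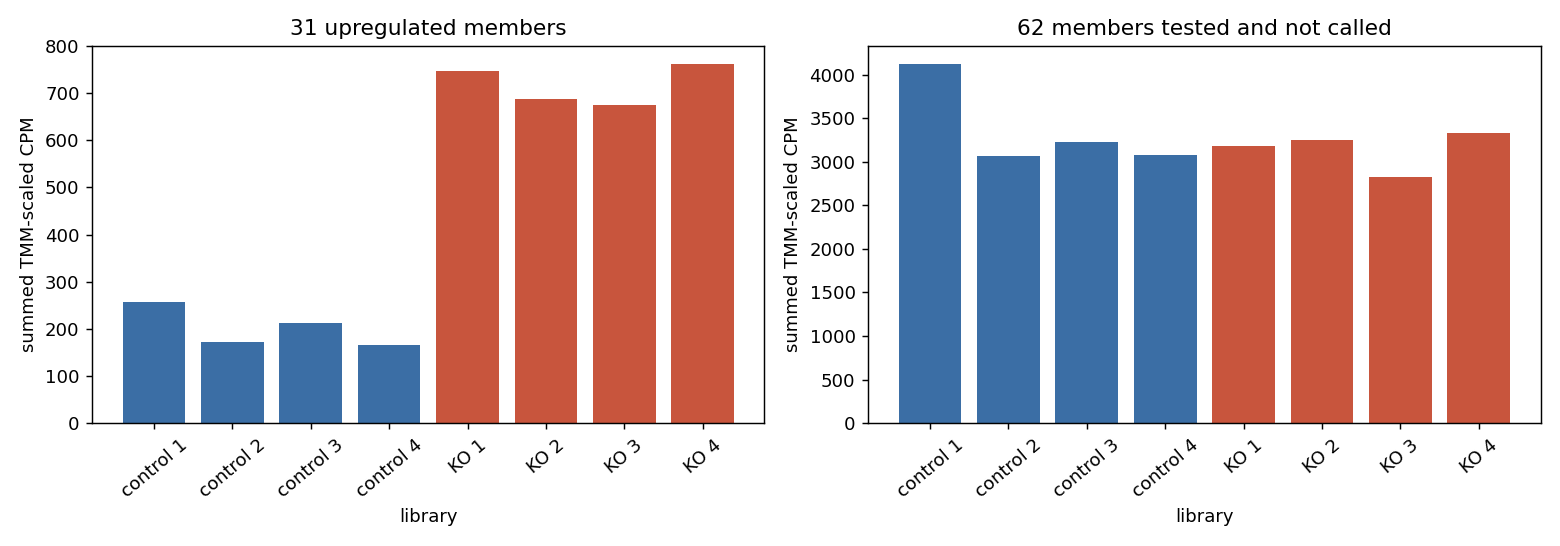
Summed TMM-scaled CPM (y axis) in each library (x axis) for the 31 upregulated members and for the 62 that were tested and not called. The red KO bars exceed the blue control bars in the first panel by construction, and the second shows control replicate 1 above all other libraries.

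Some members cannot be counted cleanly. For 17 of the 98, over 20% of the windows of 50 bases in their transcripts also occur in transcripts of another gene. This applied to 6 of the 31 upregulated genes: Zfp708, Zfp747, Zfp808, Zfp825, Zfp934 and Zfp947. Without the 17, 25 of 77 tested genes were upregulated (32.5%) and 0 downregulated, beside 23.8% and 6.56% of all genes. The median log2 fold change of the 77 was 0.31. Zfp935, which shares all of its exonic bases with Gm49359 or Zfp934, and Zfp784, of which 94.8% lies antisense to exons of Zfp865 or 4632433K11Rik, had log2 fold changes of 0.43 ± 0.28 and -0.18 ± 0.20 and were not called.

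The co-repressor genes through which KRAB domains act were divided. Of 22 genes on the list, all tested, 3 were upregulated (13.6%, beside 23.8% of all genes) and 0 downregulated (beside 6.56%), with a median log2 fold change of -0.03, and with the adjusted p alone 6 were higher and 5 lower, beside 31.2% and 24.1% of all genes. At an unadjusted p under 0.05, 0 of the 22 were at least 2-fold lower and 6 lower by any amount, beside 1336 and 5133 of all 19241 genes. With edgeR's exact test and with DESeq2, 0 were downregulated. Trim28, the scaffold itself, had 213, 218, 191 and 206 CPM in control and 222, 202, 254 and 219 CPM in KO oocytes, and Setdb1, the H3K9 methyltransferase, had 697, 441, 413 and 474 CPM in control and 428, 425, 439 and 512 CPM in KO oocytes. For both genes the groups overlapped, with log2 fold changes of 0.11 ± 0.10 and -0.17 ± 0.16, the latter above 0 when only library size was used. The upregulated genes were Cbx3, which encodes HP1γ, and Hdac1 and Mta2, which encode NuRD subunits. With the adjusted p alone, Morc3, Atf7ip and Atf7ip2 were also higher, at 0.59, 0.60 and 0.98. Rbbp7, Mta1, Trim24 and Rbbp4 were lower, at -0.58, -0.72, -0.72 and -0.77, beside Hdac2. Cbx3 had 3.45, 2.07, 3.13 and 1.75 CPM in control and 11.1, 11.4, 12.6 and 13.4 CPM in KO oocytes, a log2 fold change of 2.20 ± 0.23. Mta2 rose by 1.93 ± 0.21, from 4.06 ± 1.12 to 15.6 ± 1.51 CPM, and Hdac1 by 1.52 ± 0.16, from 7.89 ± 1.35 to 22.7 ± 1.99 CPM (SD, n = 4). Hdac2, a histone deacetylase of the same complex named after its value was seen, was lower, going from 117 ± 19.0 to 59.2 ± 9.44 CPM, a log2 fold change of -0.98 ± 0.15 that did not reach 2-fold.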

How the data were processed

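The authors sequenced rRNA-depleted RNA with 11 PCR cycles, mapped it to GRCm38 with STAR 2.6.1d, and deposited raw read counts per gene. The counting tool, annotation and strand setting are not given in the sources used here. All genes reaching 0.2 CPM in 2 libraries entered edgeR 4.0.16's quasi-likelihood test (R 4.3.3) with TMM scaling and Benjamini-Hochberg adjustment over all 19241 genes. The exact test of edgeR and DESeq2 1.42.0 were among the checks. Calls required 2-fold or more beside the adjusted p limit of 0.05. Levels of 3 counts are given as the floor set by depth and cover counting error only. Nothing says whether libraries came from separate animals, so that p-values may measure technical spread.

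Named members were the 8 largest increases and decreases (none passed) without overlap and with at least 1 CPM, the 8 highest control levels per kb, a list of known roles, the targeted and co-repressor genes, and members with a 90% identical partner (none found). The members and lists were chosen with earlier results of these data known. Transcripts, 3′UTRs and positions came from GENCODE vM21, which held all 98 genes. Replicate numbers gave correlations of -0.12 to 0.11 between same-numbered libraries and did not pair them.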

Additional observations from a re-analysis of the deposited data

Results flagged for a closer look

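In 5 of 64 groups of 4 libraries examined for the named genes, 1 library lay farther from the other 3 than Dixon's criterion allows, where chance flags about 3.2. In 4 of the 5 it was Zp3-Cre replicate 1. There Zfp706 was at 186 CPM, against 125 to 135 CPM in the other controls. Zfp951 was at 284 CPM, against 192 to 203 CPM. Zfp809 was at 4.49 CPM, against 3.86 to 3.95 CPM, and Cnot7 at 1049 CPM, against 886 to 900 CPM. The fifth was Setdb1 in CNOT7&8 KO replicate 4, at 512 CPM against 425 to 439 CPM in the other KO libraries. None of these 5 genes was upregulated or downregulated.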

How the results depend on the processing

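The count of upregulated members, 31, ranged from 28 to 35 over the other tests, scalings, filters and left-out libraries, and was 40 without the 2-fold threshold, 33 with letter-suffixed symbols added and 25 without members that share windows. Zfp771, Zfp872 and Zfp760 lost the call with some single libraries left out, and Zfp708, Zfp747, Zfp771 and Zfp872 with the filter of 1 CPM in 4 libraries. The largest counts, 35, came with scaling by library size alone and with TMM on genes of at least 10 CPM, which moved the median of all genes by 0.286 and 0.254 and that of the members to 0.614 and 0.581. Calls over all genes moved as well. Of all genes, 29.3% and 28.6% were then upregulated, against 23.8%, and 3.05% and 3.26% downregulated, against 6.56%. With these scalings 53 members were higher and 7 lower by the adjusted p alone, against 40 and 13, and upper quartile scaling, with a shift of 0.101, gave 45 and 9. Without the 2-fold threshold, 13 members and 5 co-repressor genes were lower and 6 co-repressor genes higher. Leaving out each library gave medians of 0.280 to 0.514 and 0 to 1 downregulated members, the 1 being Zfp775 and the 0.514 arising without Zp3-Cre replicate 1. The upregulated co-repressor genes numbered 4 instead of 3 in 10 of the alternatives. With 1 library left out, that list had 0 to 1 downregulated genes, 1 without Zp3-Cre replicate 2, Zp3-Cre replicate 3 or CNOT7&8 KO replicate 2. Directions turned, without a call, for Setdb1 (0.13 with library size, 0.10 with the narrower TMM, -0.25 to 0.03 with 1 library left out, the 0.03 without Zp3-Cre replicate 1), Zfp706 (0.06, 0.03 with the same scalings), Zfp735 (0.07, 0.05), Zfp750 (0.03 with library size) and Zfp768 (-0.02 without Zp3-Cre replicate 1, -0.18 without CNOT7&8 KO replicate 1, and up to 0.19). Zfp809 passed both thresholds with library size, at 1.05, and with the narrower TMM, at 1.01. In 562 other single-gene values neither direction nor the call by both thresholds changed. Some of these crossed 0.05 by the adjusted p alone. Cnot7 was at 0.385 with library size and 0.217 with the narrower TMM, and Trim28 at 0.0054 and 0.0083. With the replicate block, 31 members were upregulated, the same genes, 0 were downregulated and the median was 0.344, while Zfp704 and Zfp939 were no longer lower by the adjusted p. Leaving out members with a 90% identical partner removed none. Leaving out both outlying libraries, and members with shared windows, was chosen after seeing the data. Reasons for these movements were not tested.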

Other observations

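Members with a letter after the number were not among the 98 genes and are given as values. Of 9 such genes from Zfp729a to Zfp955b, 8 were tested and Zfp804b and Zfp874b were upregulated, beside 23.8% of all genes. Zfp804b went from 0.674 ± 0.285 to 8.36 ± 3.11 CPM, a log2 fold change of 3.54 ± 0.34, and Zfp874b from 1.74 ± 0.553 to 4.32 ± 0.917 CPM, 1.32 ± 0.27 (SD and SE, n = 4). The pair Zfp955a and Zfp955b were lower with the adjusted p alone, with log2 fold changes of -0.79 ± 0.16 and -0.92 ± 0.15 and every KO library below every control library.

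The 5 members that were not tested had few reads. Zfp853 had a count of 0 in all 8 libraries. Zfp811 and Zfp831 had at most 3 and 2 counts in any library. Zfp773 had 0 to 3 counts in 7 libraries and 10 in CNOT7&8 KO replicate 4, and Zfp764 had 0 to 2 counts in 7 and 8 in the same library.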
